A study of Mus musculus with 6 samples.

Results

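Programmed cell death and the p53 stress response were followed in the mouse retina through 28 genes, found by symbol among the 25124 gene models of the count table. They were read as 10 genes of the p53 axis, 3 pro-survival genes and 15 genes of the death machinery. Poly-adenylated RNA of whole retinas was compared between mice with the Elovl2(C234W) substitution and wild-type mice, all of strain C57BL/6J at 4 months of age, with 3 libraries of each genotype. Elovl2 encodes an elongase of long-chain polyunsaturated fatty acids, and the comparison asks which retinal transcripts differ when it carries the substitution. Neither zygosity nor sex is given, and nothing in the labels ties a library to an animal of its own, so the spread behind every p-value may be technical. Libraries FS3A, FS3B and FS5A were taken as C234W because the other 3 begin with WT. What FS stands for is not stated, and every direction rests on that reading.

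The transcription factor p53 is held at a low level by the ubiquitin ligase Mdm2. After DNA damage or other stress it switches on genes that stop the cell cycle, and, in other settings, genes that kill the cell. Death by the intrinsic route is set by the BCL2 family: BH3-only proteins such as Bim and Puma release Bax and Bak, which open the outer mitochondrial membrane, while Bcl2 and Bcl-xL hold them back. Cytochrome c then assembles Apaf1 and caspase-9 into the apoptosome. Death by the extrinsic route starts at receptors such as Fas and runs through caspase-8. In the retina these genes are best known from photoreceptor degeneration and from the loss of ganglion cells.

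Libraries of the C234W retinas held 15804646 to 19298613 counts in genes and those of the wild-type retinas 14184093 to 18710329. Elovl2 itself was measured at 82.0, 90.1 and 116 CPM (counts scaled to a common library size with TMM factors) in the C234W libraries FS3A, FS3B and FS5A, and at 142, 138 and 136 CPM in the wild-type libraries WT1A, WT2A and WT2B. A point substitution need not change the transcript level, so this does not check the labels. All 5 rod markers on the list, led by rhodopsin, were detected, and they summed to 58711 to 77624 CPM in C234W and 87746 to 136969 CPM in wild-type libraries. WT1A stood apart, with pigment epithelium markers at 686 CPM, against 96.8 to 142 CPM in C234W libraries and 63.3 and 161 CPM in WT2B and WT2A. Endothelial markers summed to 53.3 to 62.4 CPM in C234W and 28.2 to 39.7 CPM in wild-type libraries, microglia and leukocyte markers to 14.9 to 22.9 and 17.0 to 29.0 CPM, and the 4 lens markers stayed at or under 0.244 CPM in C234W and 0.399 CPM in wild-type libraries. The sum for bipolar cells was also higher in every C234W library (773 to 828 CPM, against 487 to 630 CPM in wild type). Lower in every C234W library were the sums for Müller glia (2617 to 3083 CPM, against 3308 to 4422 CPM) and ganglion cells (1072 to 1428, against 1430 to 1644 CPM). So were those for erythrocytes (37.2 to 49.7, against 71.1 to 142 CPM) and skeletal muscle (2.25 to 3.72, against 7.64 to 8.83 CPM). Cone and amacrine sums overlapped. Glul and Nefl made up most of the Müller glia and ganglion cell sums. Single genes did not all follow their sum. Log2 fold changes, C234W over wild type, were -0.42 and -1.02 for the Müller glia genes Glul and Rlbp1. They were 0.02 and 0.59 for Slc1a3 and Aqp4. The ganglion cell genes Rbpms, Pou4f1 and Sncg overlapped between genotypes. The part of these marker levels in the members' values was not tested. In whole tissue, fewer cells of a type and less RNA per cell cannot be told apart.

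No member passed the test across all genes. Of the 28, 26 had enough counts to be tested, and 0 reached an adjusted p under 0.05 (edgeR quasi-likelihood test, Benjamini-Hochberg over 14685 genes), where 1.46% of all tested genes did (0.184% higher and 1.28% lower in C234W). The count of members at an unadjusted p under 0.05 was 9 of 26, with 3 higher and 6 lower in C234W, or 34.6%, against 25.4% of all tested genes (11.9% higher and 13.5% lower). The genotypes did not overlap for 8 of 26 members, 3 higher and 5 lower in C234W, or 30.8%, against 29.1% of all tested genes (12.6% higher and 16.5% lower), so that share was near the background. Their median log2 fold change, C234W over wild type, was -0.22, and that of all tested genes was 0.02. By limma-voom the number of members called was also 0, where 1.63% of all genes were called. At an unadjusted p under 0.05 limma-voom had 8 of 26 members and 3757 of all 14685 genes.

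DESeq2, which called 11.9% of all genes (4.71% higher and 7.24% lower), called 7 of the 26 members. Fas, Apaf1 and Parp1 were higher in C234W by that test, and Bax, Sesn1, Ccng1 and Xiap lower. The smallest adjusted p in edgeR, 0.0643 to 0.0973, belonged to Bax, Sesn1, Fas, Ccng1 and Xiap. The calls depended on WT1A: without it edgeR called 18.5% of all genes (9.13% higher and 9.39% lower) and again 7 members, with Apaf1 and Parp1 higher and Ccng1, Trp53inp1, Sesn1, Phlda3 and Bax lower, while without any other library it called 0 members. The wild-type libraries left are then WT2A and WT2B, which share a number in their names and were the most alike pair of all 6 (r = 0.983 across genes). The labels do not say whether they came from separate animals, so every value given without WT1A may rest on 1 wild-type animal.

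**Figure D1:**
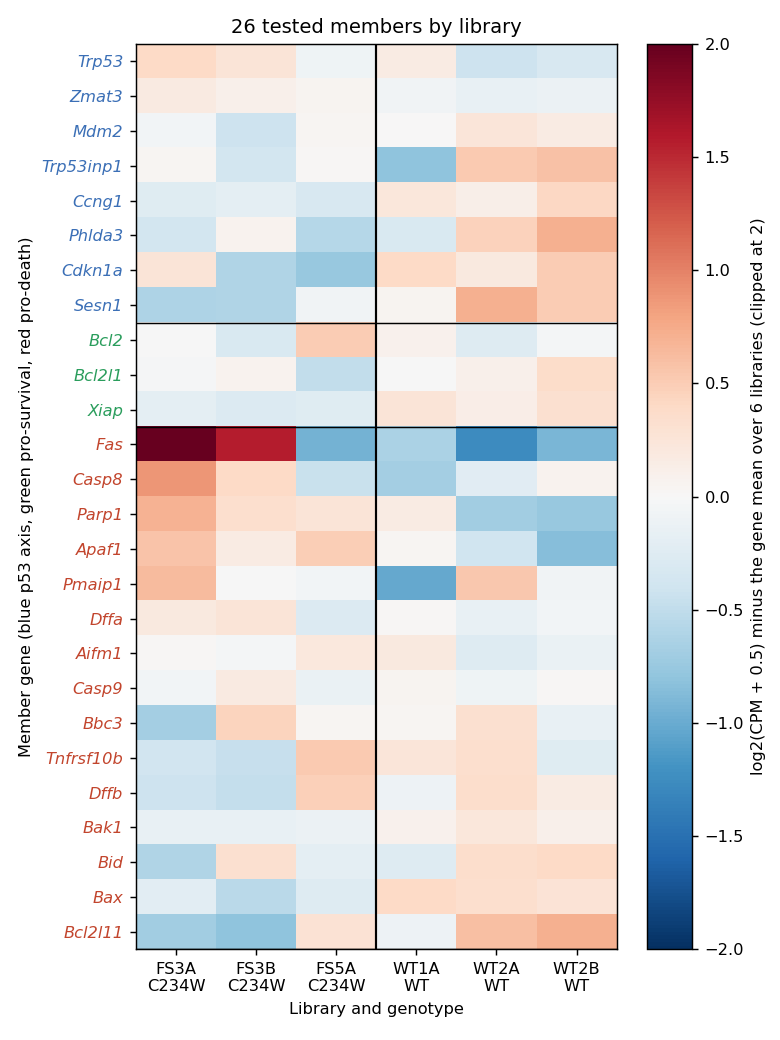
Each row is 1 of the 26 tested members and each column 1 library, with the 3 C234W libraries left of the 3 wild-type libraries; colour gives log2(CPM + 0.5) minus the gene's mean over the 6 libraries, in log2 units clipped at 2. Fas is deep red in FS3A and FS3B but blue in FS5A and all wild-type libraries, and Bax, Ccng1, Sesn1 and Xiap are at or below their mean in every C234W library and at or above it in every wild-type library.

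**Figure D2:**
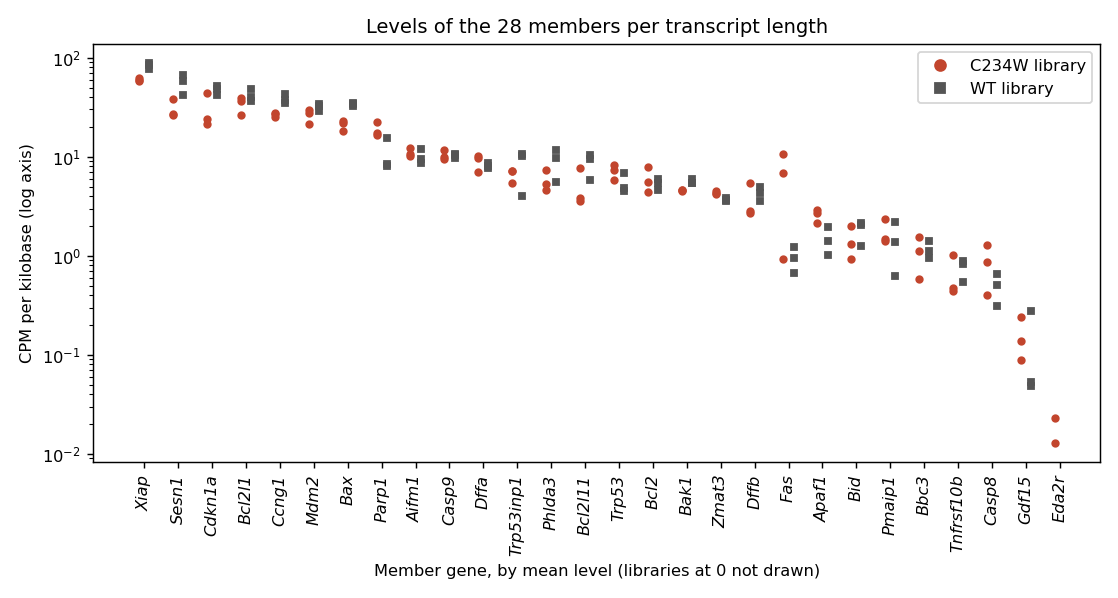
The vertical log axis gives CPM per kilobase of transcript for each member, with red circles for C234W and grey squares for wild-type libraries. Xiap was the most abundant member per length, at 60.2 in C234W and 83.6 in wild type on average, and Gdf15 and Eda2r were near the limit of detection.

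Among the p53 axis genes, Sesn1 and Ccng1 were lower in every C234W library than in any wild-type library, by values short of the threshold, and Trp53 itself overlapped between genotypes. Of 10 genes 8 were tested, 6 with a log2 fold change below 0 and 2 above, and the median was -0.42 (0.02 over all tested genes). Trp53, on chromosome 11 (69580359 to 69591873, plus strand, mm10), had 15.2, 13.8 and 10.7 CPM in C234W libraries, against 12.9, 8.40 and 9.05 CPM in wild-type libraries. The groups overlapped through FS5A and WT1A, and the log2 fold change was 0.39 (SE 0.247, adjusted p = 0.347 in edgeR). Mdm2, the ligase that marks p53 for degradation and is itself a p53 target, had 85.8, 66.7 and 91.8 CPM in C234W, against 89.8, 106 and 99.4 CPM in wild type. Here 1 C234W library lay above WT1A, and the log2 fold change was -0.27 (SE 0.165, adjusted p = 0.327 in edgeR).

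Sesn1 encodes a sestrin that restrains the growth kinase mTORC1. It had 84.0, 85.0 and 123 CPM in C234W libraries, against 134, 212 and 184.5 CPM in wild-type libraries. Every C234W library was below every wild-type one, with FS5A and WT1A closest to each other, and the log2 fold change was -0.86 (SE 0.221, unadjusted p = 0.00367, adjusted p = 0.0691 in edgeR). Ccng1, cyclin G1, a p53 target that feeds back on Mdm2, had 93.7, 96.3 and 88.3 CPM in C234W, against 129, 121 and 148 CPM in wild type. The groups were apart here too, at a log2 fold change of -0.52 (SE 0.144, unadjusted p = 0.00592, adjusted p = 0.0801 in edgeR). Cdkn1a, the cyclin-dependent kinase inhibitor p21 and the classic p53 target, had 83.6, 45.7 and 41.1 CPM in C234W, against 92.2, 79.6 and 99.2 CPM in wild type. FS3B and FS5A lay near each other and below all other libraries, and FS3A lay within the wild-type range. Its log2 fold change was -0.67 (SE 0.264, adjusted p = 0.163), and -1.06 with FS3A left out (adjusted p = 0.174, edgeR).

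Phlda3, which blocks the kinase Akt at the membrane, had 7.83, 10.8 and 6.74 CPM in C234W, against 8.20, 14.3 and 17.2 CPM in wild type. WT1A lay among the C234W values, at a log2 fold change of -0.65 (adjusted p = 0.229), with -0.89 without WT1A (adjusted p = 0.0494) and -0.41 without WT2B (adjusted p = 0.575, edgeR). Trp53inp1, a p53-induced nuclear protein that also acts in autophagy, showed the same library apart: 39.1, 29.3 and 39.0 CPM in C234W, against 21.7, 55.1 and 57.7 CPM in wild type. Its lowest value was that of WT1A, and the log2 fold change was -0.32 over all libraries (adjusted p = 0.568). It was -0.65 without WT1A (adjusted p = 0.0392), -0.20 without FS3B, -0.14 without WT2A, -0.10 without WT2B and -0.11 with libraries of a shared number summed (adjusted p = 0.774, 0.871, 0.919 and 0.927, edgeR). Zmat3, a zinc finger RNA-binding protein, averaged 33.8 ± 1.46 CPM in C234W and 28.8 ± 0.916 CPM in wild type (SD, n = 3 each) without overlap, a log2 fold change of 0.23 (adjusted p = 0.347 in edgeR) that was -0.08 once each library's trend with transcript length was removed.

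The other members of this group were barely detected. Gdf15, a secreted stress cytokine, had 6, 4 and 2 counts in the C234W libraries and 1, 7 and 1 in the wild-type libraries, and Eda2r, a receptor of the TNF family for ectodysplasin A2, had 2, 0 and 1 counts in C234W and 0 in each wild-type library. Neither was tested. At these counts a difference between genotypes was not detectable.

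p53 binds pairs of a 10-base decamer, and the windows from 250 bases before to 50 bases after each transcript start in RefSeq on GRCm38.p6 were searched for its published consensus, which reads the same on both strands. Windows were found for 24 of the 28 members, and not for Pmaip1, Tnfrsf10b, Trp53inp1 and Zmat3. An exact decamer was present for 5 of 8 matched p53 axis genes (Trp53, Mdm2, Cdkn1a, Ccng1 and Sesn1), 1 of 13 matched death genes (Bax) and 0 of 3 pro-survival genes; 8.36% of all 32851 windows and 9.55% of all genes in the table had one. A match is a description of the letters and does not show binding. The 4 upstream stretches printed here belong to the p53 targets with the lowest fold changes among those with a match. Each gives the 250 bases before a transcript start, 5′ to 3′ on the gene's strand, in lower case with the decamer in capitals.
Sesn1 (chr10:41887189-41887438, plus strand): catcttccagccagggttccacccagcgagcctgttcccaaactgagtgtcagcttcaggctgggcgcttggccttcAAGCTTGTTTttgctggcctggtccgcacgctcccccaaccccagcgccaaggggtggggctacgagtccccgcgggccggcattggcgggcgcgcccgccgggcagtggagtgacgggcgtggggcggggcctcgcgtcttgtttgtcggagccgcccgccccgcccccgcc
Bax (chr7:45466899-45467148, minus strand): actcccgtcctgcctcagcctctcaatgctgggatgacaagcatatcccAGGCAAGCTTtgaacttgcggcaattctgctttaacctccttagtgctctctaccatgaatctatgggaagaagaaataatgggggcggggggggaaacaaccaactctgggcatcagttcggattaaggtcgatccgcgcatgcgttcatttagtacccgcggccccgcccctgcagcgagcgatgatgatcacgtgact
Cdkn1a (chr17:29090729-29090978, plus strand): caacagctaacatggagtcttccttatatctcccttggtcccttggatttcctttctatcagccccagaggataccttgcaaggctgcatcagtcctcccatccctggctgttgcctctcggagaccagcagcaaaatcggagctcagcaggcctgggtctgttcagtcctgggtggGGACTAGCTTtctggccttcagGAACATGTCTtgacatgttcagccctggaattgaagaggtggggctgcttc
Ccng1 (chr11:40755287-40755536, minus strand): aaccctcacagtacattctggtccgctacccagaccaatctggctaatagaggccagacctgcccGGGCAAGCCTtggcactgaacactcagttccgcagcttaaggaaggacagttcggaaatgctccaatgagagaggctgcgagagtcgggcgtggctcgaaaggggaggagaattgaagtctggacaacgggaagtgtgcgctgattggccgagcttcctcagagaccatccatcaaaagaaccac
The Cdkn1a stretch holds 2 exact decamers, at -73 to -64 and -51 to -42 from its start, which are not adjacent. The 10 bases right after the later decamer depart from the consensus only at the first base, so they were left in lower case. This stretch lies before an upstream start, and the counted transcript begins at 29093769, whose own window had 0. That of Sesn1 lies before an internal start and holds its decamer at -173 to -164, whereas the counted transcript begins at 41810574 with 0 in its window. In Bax the decamer is at -201 to -192 and in Ccng1 at -185 to -176, both before the counted transcript. The 4 genes shown had log2 fold changes of -0.52 to -0.86, while Mdm2 and Trp53, with the same kind of match, were at -0.27 and 0.39.

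Of the 3 pro-survival genes, Xiap, an inhibitor that binds caspases directly, set the C234W libraries apart from wild type. Xiap had 413, 391 and 400.0 CPM in C234W libraries, against 566, 517 and 590.0 CPM in wild-type libraries. All C234W libraries lay below all wild-type ones, and the log2 fold change was -0.48 (SE 0.146, unadjusted p = 0.00996, adjusted p = 0.0973 in edgeR). Bcl2l1, whose long form Bcl-xL guards the mitochondrial membrane, had 96.3, 103 and 69.5 CPM in C234W, against 97.2, 105 and 127 CPM in wild type. FS5A was the lowest of the 6 and the others lay close together apart from WT2B, at a log2 fold change of -0.29 (95% interval -0.72 to 0.14, adjusted p = 0.358 in edgeR). Exon tags were counted for 1 isoform of each locus, so the long and short forms of Bcl2l1 are not told apart. Bcl2, the founding member of the family, had 39.9, 32.1 and 56.8 CPM in C234W, against 42.5, 33.4 and 39.0 CPM in wild type. FS5A was the highest and FS3B the lowest of the 6, and the log2 fold change of 0.16 (adjusted p = 0.679 in edgeR) was -0.09 without FS5A.

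Values of the death machinery lay on both sides of 0, with 8 of 15 genes above and 7 below and a median log2 fold change of 0.01. Fas, the death receptor CD95 and a p53 target, had the largest log2 fold change of the 26 in size. It lies on chromosome 19 (34290659 to 34327770, plus strand, mm10). Deposited counts were 289.5, 214.5 and 22.5 in FS3A, FS3B and FS5A, against 27.5, 18.5 and 19 in WT1A, WT2A and WT2B, or 15.9, 10.2 and 1.37 CPM in C234W libraries against 1.83, 0.996 and 1.40 CPM in wild-type libraries. FS3A and FS3B, which share a number in their names, were far above every other library, and FS5A lay within the wild-type range. The log2 fold change was 2.7 (SE 0.747, 95% interval 1.01 to 4.39, adjusted p = 0.0791 in edgeR). It was 2.04 without FS3A (adjusted p = 0.258), 2.62 without FS3B (adjusted p = 0.148) and 3.21 without FS5A (adjusted p = 0.0731, edgeR). Adding libraries that share a name number gave 2.25 (adjusted p = 0.457, edgeR). By limma-voom the log2 fold change of Fas was 2.2 (unadjusted p = 0.0561, adjusted p = 0.206), and by DESeq2 2.7 (adjusted p = 0.00139).

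Genes of reactive glia had their high values in the same libraries as Fas. Gfap, the intermediate filament of reactive glia, had 248, 99.4 and 26.5 CPM in the C234W libraries FS3A, FS3B and FS5A, against 46.7, 25.3 and 20.4 CPM in the wild-type libraries. The acute-phase protein gene Lcn2 had 184, 123 and 9.88 CPM in C234W, against 42.8, 18.9 and 25.2 CPM in wild type. Both were chosen after their values were seen, and their part in the Fas result was not tested. The sum of microglia and leukocyte markers, mostly Csf1r, was 14.9, 22.9 and 17.9 CPM in FS3A, FS3B and FS5A. Its genes differed in order across these libraries. Ptprc (0.684, 1.07 and 0.305 CPM) and Itgam (4.90, 4.03 and 2.38 CPM) were higher in FS3A and FS3B than in FS5A. Cx3cr1 (0.602, 1.23 and 2.195 CPM) was lower in both, and Csf1r and P2ry12 had FS5A between them. The part of immune cells in the Fas values was not tested.

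Casp8, the initiator caspase recruited to Fas and likewise highest in FS3A and FS3B, had 3.34, 2.25 and 1.04 CPM in C234W, against 0.797, 1.29 and 1.69 CPM in wild type, a log2 fold change of 0.82 (adjusted p = 0.328 in edgeR) that was 0.41 without FS3A (adjusted p = 0.73). Of a list of 10 other genes of receptor signalling and necroptosis, 8 were tested. A log2 fold change above 0 was found for 7 of them, and for 7633 of all 14685 tested genes. Ripk1, the kinase at the fork between survival and death signals of the TNF receptor, had 25.5, 12.3 and 9.63 CPM in C234W, against 8.10, 7.35 and 4.41 CPM in wild type. That order put FS3A highest with no overlap between genotypes, with a fitted log2 fold change of 1.26 and SE 0.393 (adjusted p = 0.103), and 0.73 without FS3A (adjusted p = 0.325, edgeR). Cflar, the inhibitor of caspase-8 known as c-FLIP, had 46.1, 33.2 and 20.3 CPM in C234W, against 23.2, 21.1 and 18.8 CPM in wild type, at 0.66 (adjusted p = 0.182), and 0.35 without FS3A (adjusted p = 0.519, edgeR). The TNF receptor gene Tnfrsf1a had 34.0, 35.4 and 5.73 CPM in C234W, against 20.7, 5.81 and 5.70 CPM in wild type; it was also high in WT1A. Cradd, an adaptor for caspase-2, was the 1 gene of the list below 0, at -0.63 (adjusted p = 0.139, edgeR). None of the list passed, and 3 of 8 were at an unadjusted p under 0.05 in edgeR (37.5%, against 25.4% of all genes). DESeq2 called 1 of 8, Ripk1, where it called 11.9% of all genes, and that count was near the background. Tnfrsf10b, the mouse receptor for TRAIL, averaged 2.06 ± 1.05 CPM in C234W and 2.37 ± 0.567 CPM in wild type (SD, n = 3 each), a log2 fold change of -0.21 (adjusted p = 0.792 in edgeR).

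**Figure D3:**
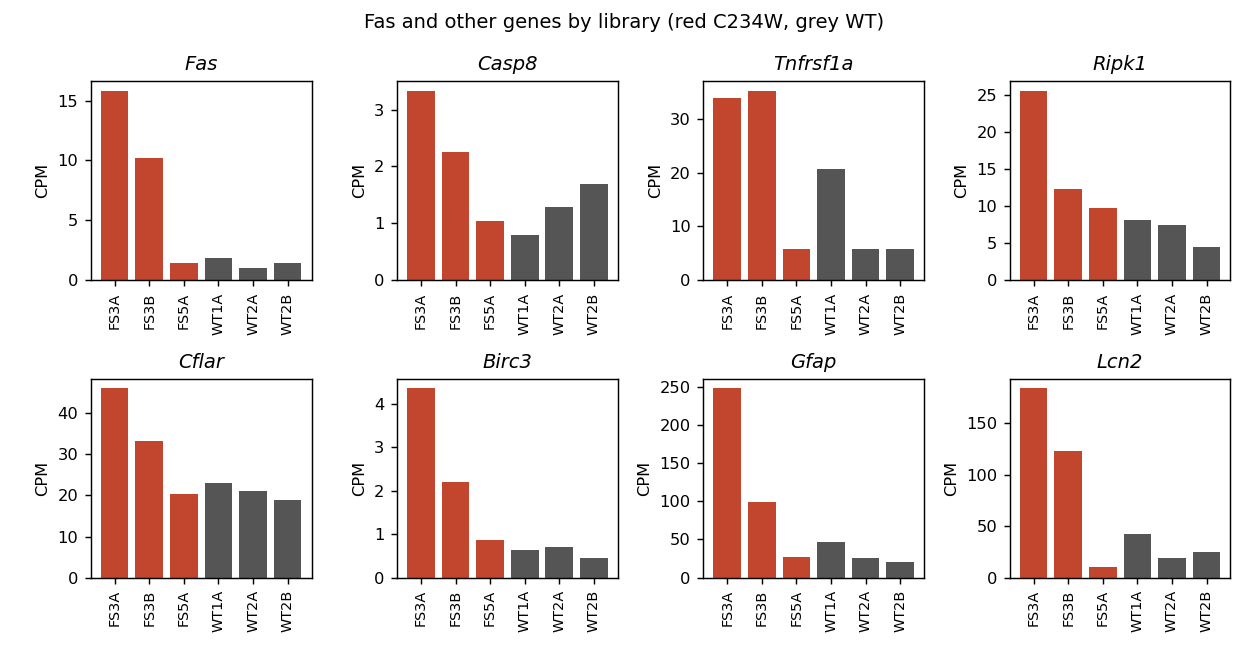
Bars give CPM in each library on linear axes from 0, red for the 3 C234W libraries and grey for the 3 wild-type libraries, for Fas, its pathway partners and the glial genes Gfap and Lcn2. Fas stands at 15.9 and 10.2 CPM in FS3A and FS3B and at 1.83 CPM or less elsewhere, and FS3A and FS3B have the highest bars in every other panel too, with Tnfrsf1a at 20.7 CPM in WT1A.

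At the mitochondrial membrane, the pore former Bax was lower in every C234W library than in any wild-type library, while the BH3-only gene Bcl2l11 overlapped. Bax, on chromosome 7 (45461695 to 45466898, minus strand, mm10), had 19.5, 15.6 and 18.9 CPM in C234W libraries, against 30.0, 29.0 and 27.7 CPM in wild-type libraries. Within each genotype the values were close, and the groups were well apart, at a log2 fold change of -0.69 (SE 0.169, unadjusted p = 0.00292, adjusted p = 0.0643 in edgeR), the smallest p of the 26. Bak1, its partner in opening the membrane, averaged 9.26 ± 0.114 CPM in C234W and 11.3 ± 0.649 CPM in wild type (SD, n = 3 each) without overlap, at -0.29 (adjusted p = 0.37 in edgeR); the isoform kept for it carries a non-coding RefSeq identifier, so its level may not be that of the coding form. Bcl2l11, which encodes Bim, had 19.3, 17.9 and 38.7 CPM in C234W, against 29.2, 48.0 and 51.9 CPM in wild type. FS3A and FS3B were the lowest and FS5A lay inside the wild-type range. Its log2 fold change was -0.77 (SE 0.33, adjusted p = 0.188), -1.21 without FS5A (adjusted p = 0.0911) and -0.48 with libraries of a shared number summed (adjusted p = 0.635, edgeR).

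The remaining BH3-only genes were scarce. Bbc3 (Puma) averaged 2.14 ± 0.968 CPM in C234W and 2.28 ± 0.455 CPM in wild type, Bid, which caspase-8 cleaves, 2.68 ± 1.03 and 3.41 ± 0.917 CPM, and Pmaip1 (Noxa) 4.64 ± 1.44 and 3.74 ± 2.10 CPM in the same order (SD, n = 3 each). Their log2 fold changes were -0.10, -0.34 and 0.30, with 95% intervals of -1.05 to 0.85, -1.21 to 0.52 and -0.72 to 1.33. These intervals take in changes of 1 log2 unit or nearly so, so differences of that size were not detectable for these genes.

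Apaf1, the scaffold of the apoptosome, had 18.6, 13.9 and 17.6 CPM in C234W libraries, against 12.7, 9.23 and 6.62 CPM in wild-type libraries. All C234W libraries were higher, with FS3B and WT1A nearest each other, at a log2 fold change of 0.81 (SE 0.269, unadjusted p = 0.0153, adjusted p = 0.118 in edgeR). Casp9, the caspase it activates, averaged 40.2 ± 4.63 CPM in C234W and 40.0 ± 2.18 CPM in wild type (SD, n = 3 each), with a log2 fold change of 0.01 and a 95% interval of -0.35 to 0.36. Parp1, a DNA damage sensor, had 80.6, 62.8 and 59.8 CPM in C234W, against 56.1, 30.7 and 29.3 CPM in wild type. WT1A came close to FS5A and the other wild-type libraries were far below, with a fitted log2 fold change of 0.81 and SE 0.265 (adjusted p = 0.113), and 1.18 without WT1A (adjusted p = 0.0124, edgeR). Aifm1, the mitochondrial flavoprotein released in caspase-independent death, averaged 24.5 ± 2.31 CPM in C234W and 22.4 ± 3.75 CPM in wild type (SD, n = 3 each), at 0.13 (adjusted p = 0.696 in edgeR).

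The nuclease that cuts chromatin in apoptosis and its inhibitor differed in which C234W library was high. The nuclease gene Dffb had 5.78, 5.50 and 11.1 CPM in FS3A, FS3B and FS5A, and the inhibitor gene Dffa had 23.9, 25.1 and 17.2 CPM in the same libraries. Wild-type values were 7.27, 10.2 and 8.83 CPM for Dffb and 21.3, 18.8 and 20.01 CPM for Dffa. FS5A was the highest library for Dffb and the lowest for Dffa, and the fitted log2 fold changes of -0.24 and 0.14 (adjusted p = 0.671 and 0.679 in edgeR) average over that split.

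**Figure D4:**
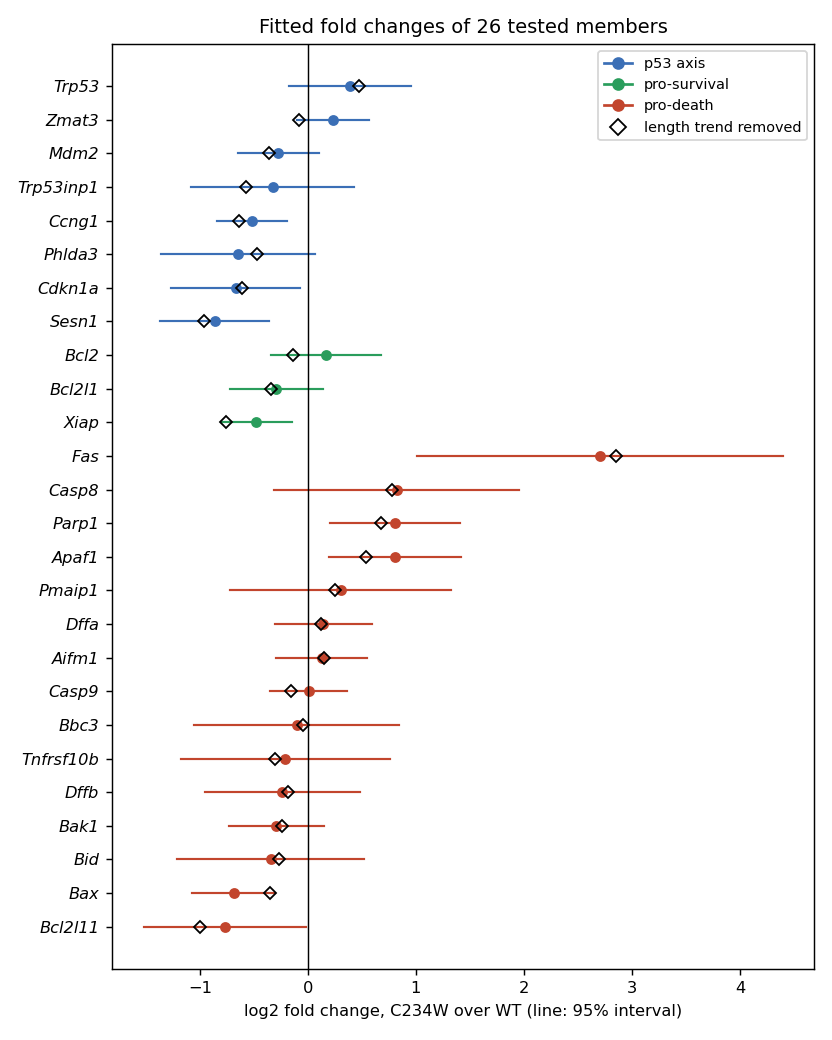
Points give the fitted log2 fold change of C234W over wild type for the 26 tested members with their 95% intervals, coloured by role, and open diamonds the value with the transcript length trend removed. Fas stands alone at 2.7, and the diamonds of Bax and Apaf1 lie nearer 0 than their points, whereas that of Xiap lies farther from it.

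Across the whole table, fold changes between the genotypes varied with transcript length. Tested genes were split by length into 5 equal classes. Class medians of the log2 fold change were -0.34 in the class of transcripts no longer than 1671 bases and 0.28 in that of the longest. Bax has the shortest transcript of the 28 at 861 bases, and Xiap and Zmat3 are among the longest at 6669 and 7774. Bax stood at -0.35 (unadjusted p = 0.0612) once each library's length trend was taken out, against -0.69 before. Apaf1, of 6485 bases, was at 0.54 (unadjusted p = 0.063). Values lower in C234W became larger in size for Xiap (-0.76, unadjusted p = 0.000665), Sesn1 (-0.96), Ccng1 (-0.64) and Bcl2l11 (-1.002), and Fas was at 2.85. After that step edgeR called 0 of all genes and 0 members, with 20.5% of all genes (7.02% higher and 13.5% lower) and 7 of 26 members, or 26.9%, at an unadjusted p under 0.05.

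**Figure D5:**
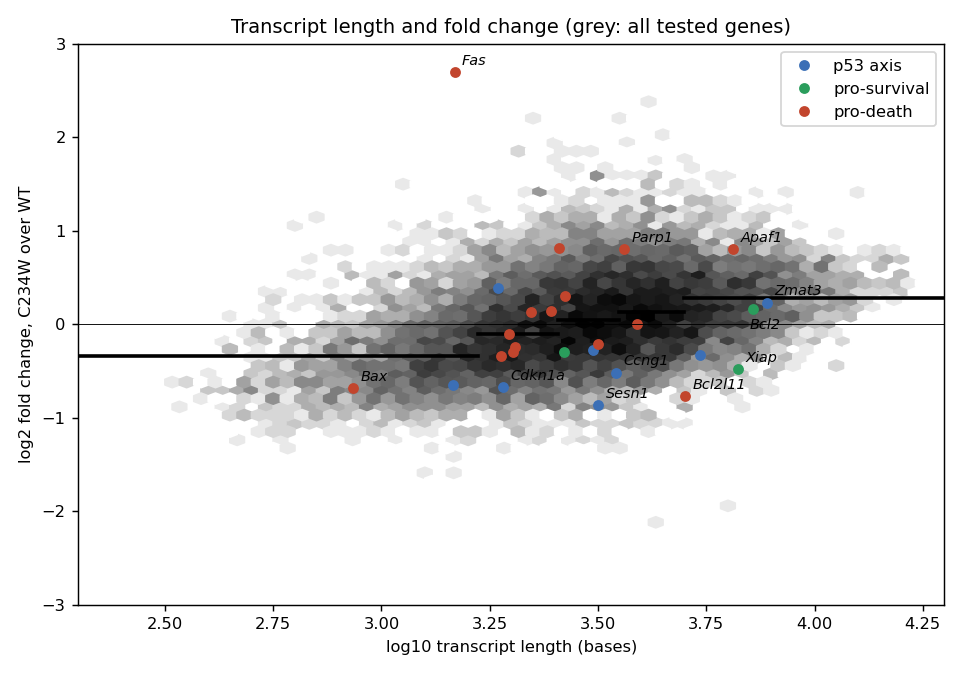
The horizontal axis is log10 transcript length in bases and the vertical axis the log2 fold change of C234W over wild type; grey hexagons hold the tested genes within the plotted range, black bars are the medians of 5 classes of genes by length and coloured points the members. The bars climb from -0.34 to 0.28, with Bax, at -0.69, below the bar of the short end at -0.34 and Xiap and Bcl2l11 well below the bars of the long end.

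The balance of Bax to Bcl2 is often used as an index of readiness to die. Per kilobase of transcript, log2 of Bax over Bcl2 was 2.04, 2.02 and 1.48 in C234W libraries, against 2.56, 2.86 and 2.58 in wild-type libraries. Every C234W library had the lower ratio, and the difference, C234W minus wild type, averaged -0.82. It was not tested. The pair has among the shortest and the longest transcripts of the members, and with the length trend removed the fitted difference was -0.21.

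Beyond the members, 77 other genes of the pathway were listed by role, and 71 were tested. Of these 0 passed in edgeR, 17 were at an unadjusted p under 0.05 (23.9%, against 25.4% of all genes) and DESeq2 called 8, where it called 11.9% of all genes; both counts were near the background. Among 29 other p53 targets the median log2 fold change was -0.07. At an unadjusted p under 0.05 in edgeR, 1 was higher (3.45%, against 11.9% of all genes) and 5 lower (17.2%, against 13.5%). Rps27l, a ribosomal protein-like p53 target, averaged 8.36 ± 1.01 CPM in C234W and 16.6 ± 2.85 CPM in wild type (SD, n = 3 each), at -0.99 (adjusted p = 0.056 in edgeR), and -0.52 with the length trend removed. Ei24, a membrane protein of the endoplasmic reticulum, averaged 119 ± 9.32 CPM in C234W and 174 ± 1.96 CPM in wild type, at -0.55 (adjusted p = 0.0656), and Ptp4a3, a phosphatase, 519.9 ± 102 and 802 ± 169 CPM, at -0.63 (adjusted p = 0.125; SD, n = 3 each, edgeR).

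Regulators of p53 had a median of 0.13 over 13 genes, 9 of them above 0. The 3 with the smallest p were Trp53bp1, which gathers at DNA breaks (0.52, adjusted p = 0.107), Mdm4, the partner of Mdm2 (0.51, adjusted p = 0.168), and the checkpoint kinase gene Chek1 (-0.94, adjusted p = 0.242 in edgeR). Their median transcript length was 5394 bases, against 3020 over all tested genes, and their median was -0.13 with the length trend removed.

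In the wider BCL2 family 0 of 9 genes passed and the median was -0.32. Bcl2l10, the pore former Bok and the survival gene Mcl1 had log2 fold changes of -1.17, -0.49 and -0.36 (adjusted p = 0.132, 0.201 and 0.225 in edgeR). The mitochondrial nuclease gene Endog was at -0.71 (adjusted p = 0.11 in edgeR) and -0.42 with the length trend removed. All 4 other IAP genes were above 0, led by Birc3, an inhibitor induced by NF-kB, with 4.35, 2.21 and 0.854 CPM in C234W, against 0.631, 0.70 and 0.441 CPM in wild type (log2 fold change 2.02, SE 0.609, adjusted p = 0.0938, and 1.33 without FS3A, adjusted p = 0.314, edgeR). FS3A and FS3B were again the highest libraries. The giant Birc6 was at 0.52 (adjusted p = 0.126) and 0.03 with the length trend removed, and Birc2 at 0.20 (adjusted p = 0.468, edgeR).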

How the data were processed

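Poly-A RNA of whole retinas was sequenced in 6 strand-specific libraries. Per the series' design text, the authors aligned to mm10 and counted uniquely mapped exon tags of 1 isoform per locus with HOMER 4.11; the aligner was STAR 2.7.8a according to the submitters' processing notes. What the authors deposited is an estimated count for each gene and library, without normalization, per the series' design text. Transcript length is the deposited length column.

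Counts were rounded, filtered to 14685 of 25124 genes (filterByExpr) and scaled by TMM; genotypes were then compared in edgeR 4.0.16 under R 4.3.3 (glmQLFit, robust, no covariate) with Benjamini-Hochberg adjustment over all tested genes (threshold 0.05). CPM use TMM-scaled library sizes; means are ± SD over 3 libraries. Intervals for fold changes are 95%. Alternatives were other scalings and filters, DESeq2 (1.42.0), limma-voom (limma 3.58.1), unrounded counts, a loess length trend removed by offsets (span 0.3), summed libraries, a threshold of 0.1 and leaving out each library. No pair of libraries agreed within sampling noise (smallest chi-square per degree of freedom 9.97, WT2A and WT2B). Depth is given as counts in genes, which set the precision of scarce members. All 28 members are named, with each library's value for the 10 with the smallest p and for Trp53, Mdm2, Bcl2 and Bcl2l1, and in other lists the 3 genes with the smallest p, of which some results are not reported here; further genes with library values (Dffa, Dffb, Casp8, Tnfrsf1a, Trp53inp1, Gfap and Lcn2) were chosen after their values were seen. The members, lists and alternatives were chosen with earlier results of these data known. The scripts were tested on simulated data.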

Additional observations from a re-analysis of the deposited data

How the results depend on the processing

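No member passed in edgeR under RLE, upper-quartile or total-count scaling, either other filter, unrounded counts, summed libraries or the removed length trend. DESeq2, which called 11.9% of all genes, called 3 members higher and 4 lower with 8 other pathway genes. A threshold of 0.1 in edgeR, which 10.5% of all genes passed, gave 1 member higher, 4 lower and 4 other pathway genes. Leaving out 1 library gave 0 to 2 members higher, 0 to 5 lower and 0 to 12 other pathway genes. All these calls came without WT1A, where 18.5% of all genes were called. At an unadjusted p under 0.05 were 5 to 11 members (4 with libraries of the same number summed). The matching counts over all genes also moved, from 2183 of 14970 without WT2B to 5384 of 14988 without WT1A. With summed libraries that count was 1793 of 15193. Over all genes 215 passed in edgeR, at adjusted p of 0.0484 and above: 0 under RLE, upper-quartile or total-count scaling, the removed length trend or summed libraries, 353 with no filter, 1754 by DESeq2, 1536 at 0.1 and 0 to 2775 with 1 library left out. Scaling to total counts put the median of all genes at 0.205, against 0.0234 with TMM, and gave medians of -0.056 for all members, 0.19 for death genes and -0.11 for pro-survival genes. Summed libraries gave a median of -0.085 for members. Leaving out 1 library gave medians of -0.23 to -0.056 for members, -0.40 to -0.14 for pro-survival genes and -0.04 to 0.05 for death genes. The log2 difference in the Bax to Bcl2 ratio ran from -0.92 to -0.64 with 1 library left out and was -0.21 with the length trend removed, a setting chosen after seeing the data. Signs turned for members near 0: Bbc3 to 0.076 with total counts; Zmat3 to -0.079, Bcl2 to -0.14 and Casp9 to -0.15 with the length trend removed; Casp9 to -0.040 with summed libraries. With 1 library left out, log2 fold changes ran from -0.47 to 0.20 for Bbc3, -0.089 to 0.069 for Casp9, -0.69 to 0.0089 for Tnfrsf10b, -0.091 to 0.34 for Bcl2 and -0.045 to 0.80 for Pmaip1. The causes were not tested, and depth limits Eda2r, Gdf15, Bid, Bbc3, Pmaip1, Casp8 and Tnfrsf10b. No paired analysis was possible because the columns carry no replicate numbers of the labels.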
